A study of Mus musculus with 9 samples.

Results

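The 8 genes described here are known as genes of the choroid plexus and were measured in bulk RNA sequencing of a piece of mouse thalamus. They were taken from a list of 9 names, Ttr, Calml4, Lbp, Sostdc1, Folr1, Clic6, Kl, Otx2 and Aqp1, and 8 of the 9 were found among the 18956 gene symbols of the read count table. Aqp1, which encodes a water channel, was not analysed here. All 8 passed the filter on low counts and were among the 18194 symbols tested. The list was drawn up as a sign of choroid plexus in the dissected piece, and the levels below bear on how far its members behave as 1 group.

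The choroid plexus is a fringe of vascular tissue inside the brain ventricles, covered by a cuboidal epithelium that secretes cerebrospinal fluid and carries nutrients and hormones into it. Its epithelium is continuous with the ependyma, the ciliated lining of the ventricle, and both border the dorsal midline of the thalamus, where the third ventricle lies next to the paraventricular nucleus and the habenula. Transthyretin, the product of Ttr, is among the most abundant transcripts of this epithelium and is rare in neurons and glia.

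The tissue was labelled as the anterior paraventricular nucleus of the thalamus of BALB/c mice, with 3 groups of 3 libraries. Non-stressed mice received saline, and stressed mice went through 5 days of social defeat (smSDS in the labels), in which a mouse is exposed to an aggressive one, and received saline. The last group went through the same defeat and received (2S,6S)-HNK, a hydroxynorketamine formed from ketamine, and is called SHNK here. No SHNK group without stress is among these libraries, and the labels used here give no age, dose or number of animals. Nor do they tie the libraries to separate animals, and each p-value thus measures only the spread between these libraries, which may be technical. A library is named by its group and replicate number, so that stressed 2 is replicate 2 of stressed saline. Total counts ran from 32307869 to 51569143 per library, and the lowest count in the table was 1.

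On the RefSeq annotation of GRCm38.p6, Calml4 spans chr9:62857472-62875921, Lbp chr2:158306493-158332852, Sostdc1 chr12:36314169-36318452 and Folr1 chr7:101858331-101870788. Clic6 spans chr16:92498147-92541241, Kl chr5:150952607-150993817 and Otx2 chr14:48656781-48667644. Of the 4221 exonic bases of Otx2, 168 are shared with Gm49154 on the same strand and 154 with Otx2os1 on the opposite strand. Neither of these genes is among the symbols used here, and whether counting used strand is not given in the sources used here, so some Otx2 reads may belong to them. RefSeq promoter entries were found for 3 of the 8 genes, 1 start each for Calml4 and Kl and 4 for Otx2. The windows of Calml4 and of the most upstream Otx2 start are shown, because Calml4 had the smallest adjusted p of the 8 genes and Otx2 is the transcription factor among them. Each is the part of the 250 bases before the start that holds no annotated exon, written 5′ to 3′ on the gene's strand, with matches to a searched motif in capitals.
Calml4 (chr9:62857854-62858079, plus strand): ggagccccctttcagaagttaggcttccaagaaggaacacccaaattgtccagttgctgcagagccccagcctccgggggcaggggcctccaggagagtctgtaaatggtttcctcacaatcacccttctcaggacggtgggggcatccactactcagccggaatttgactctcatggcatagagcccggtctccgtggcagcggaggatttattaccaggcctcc
Otx2 (chr14:48667645-48667894, minus strand): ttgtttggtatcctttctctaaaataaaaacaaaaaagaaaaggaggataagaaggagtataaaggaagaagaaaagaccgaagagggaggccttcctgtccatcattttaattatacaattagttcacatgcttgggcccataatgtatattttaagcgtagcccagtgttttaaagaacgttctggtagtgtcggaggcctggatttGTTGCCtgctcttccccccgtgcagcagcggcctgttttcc
Both strands were searched for TAATCC, the core bound by OTX proteins, GTAAACA, a core bound by FOXJ1, the regulator of motile cilia, and GTTGCC, part of the site bound by RFX factors. None of them occurs in the 250 bases before the Calml4 start or the Kl start of these entries. The Calml4 window begins at 62857854, inside the gene span given above, which begins at 62857472. The bases before that span were thus not searched. GTTGCC has 1 match in the Otx2 window shown. RefSeq gives Otx2 further starts inside the gene, whose windows overlap exons by 136 to 250 bases and are not printed. Of their windows, the one before start 2, which overlaps the window shown, holds 2 matches to GTTGCC, the one before start 3 holds 1 to TAATCC, and the one before start 4 holds none of these motifs. Over 32851 RefSeq promoters of the same length, 6.25% held TAATCC, 3.17% GTAAACA and 10.4% GTTGCC.

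Levels are given as CPM, the counts scaled to a common library total, and as RPKM, which is CPM divided by exonic length in kilobases, where levels of different genes are compared. By mean RPKM, Ttr was the most abundant of the 8 genes in each group, at 36.7 ± 7.71 in SHNK, 25.0 ± 10.6 in stressed saline and 15.1 ± 4.14 in non-stressed saline (SD, n = 3 libraries each). Across the groups, mean RPKM of Calml4, Lbp, Sostdc1, Folr1, Clic6 and Otx2 lay between 1.16 (Sostdc1 in non-stressed saline) and 4.28 (Lbp in stressed saline). Kl was far below, at a mean RPKM of 0.0519 to 0.102. Among the 16724 symbols with an exonic length, Ttr ranked between 1439 (SHNK 1) and 4562 (non-stressed 1) by RPKM. Kl stood between the 0.574 and the 5.29 percentile of the same symbols.

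A wider list of 57 choroid plexus epithelium genes, of which 47 were present, gave a check of the label. Of the 47, 12 stayed under 2 CPM, a limit on reads with no regard to length, in every library. They include Kcnj13 and Kcne2, potassium channel subunits of the apical membrane, Slc4a5, a bicarbonate transporter, Cldn2, a tight junction claudin, and F5, coagulation factor V. By RPKM, Kcnj13 ran from 0.242 to 1.15, Kcne2 from 0.0972 to 0.312, Slc4a5 from 0.0863 to 0.301, Cldn2 from 0.0837 to 0.396 and F5 from 0.00366 to 0.103. None of the 47 was at 0 in any library, but the lowest count in the table was 1, so this holds for every gene in it. The listed genes that were not present could not be checked. Other listed genes were far higher, up to an RPKM of 463 to 685 for Atp1b1, a sodium pump subunit that neurons and glia also express. Several channels and junction proteins of the epithelium were thus counted only at low level, and which cells gave the reads of the 8 genes was not measured.

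**Figure D1:**
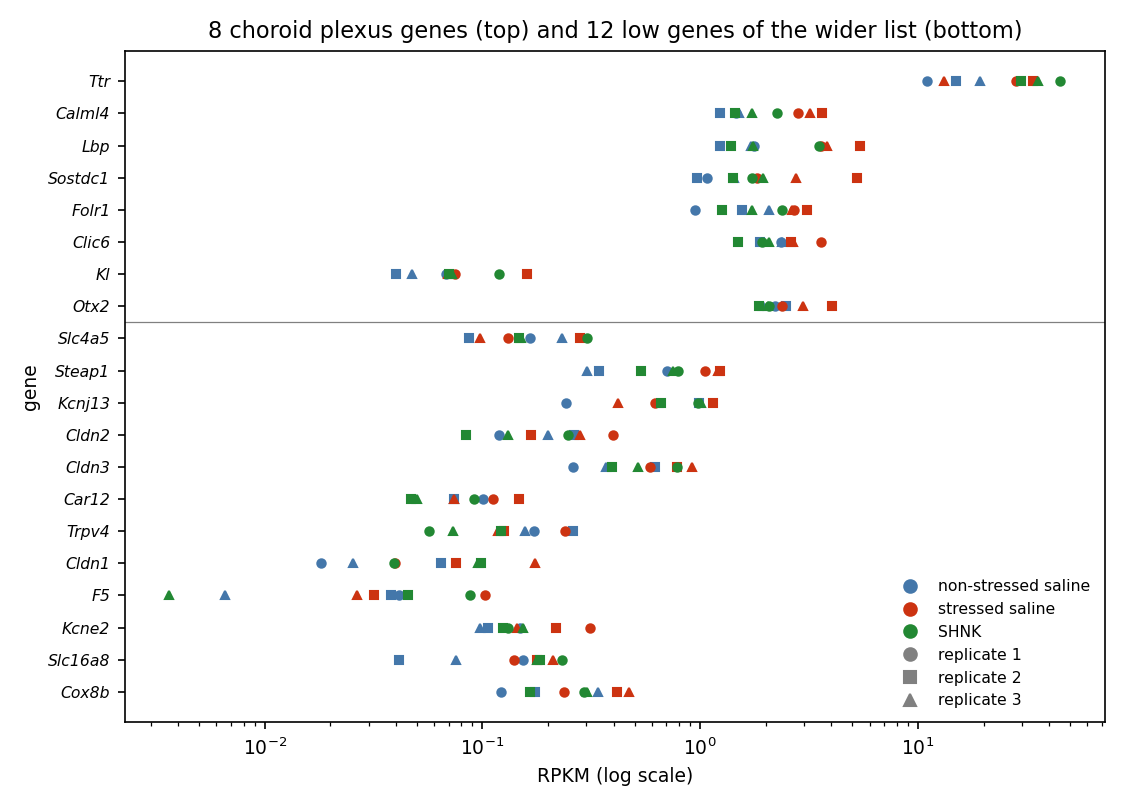
Level of the 8 choroid plexus genes (above the line) and of the 12 low genes of the wider epithelium list (below it) in each of the 9 libraries, in RPKM on a log axis, with colour for group and marker shape for replicate. Ttr lies between 10.999 and 44.97 RPKM, while Steap1, with the highest value among the 12, reaches 1.23 and Kl lies among the low genes.

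Ttr, on chromosome 18, encodes the carrier of thyroxine and of retinol-binding protein in cerebrospinal fluid and was highest in SHNK. Its level was 13.0, 17.8 and 22.9 CPM in non-stressed saline (replicates 1 to 3, in order here and below), 33.5, 39.8 and 15.6 CPM in stressed saline, and 53.3, 35.2 and 42.2 CPM in SHNK. All SHNK libraries were above all non-stressed ones, while the stressed group spanned from inside the non-stressed range to inside the SHNK range, with its replicate 3 low. Against non-stressed saline, Ttr in SHNK had a log2 fold change of 1.29 ± 0.28 (standard error; 95% interval 0.69 to 1.88), which missed the threshold with an adjusted p of 0.0776 in edgeR. It passed by DESeq2 (adjusted p = 0.0266), in a fit of those groups alone (0.0364) and without non-stressed 2 (0.04996). Stressed against non-stressed saline gave 0.73 ± 0.28 with an interval from 0.14 to 1.33 (adjusted p = 0.348), and without stressed 3 it gave 1.04 (adjusted p = 0.0358). SHNK against stressed saline gave 0.55 ± 0.27 with an interval from -0.03 to 1.13 (adjusted p = 0.241). By mean level the order was thus SHNK, stressed and non-stressed saline. The ranges of both neighbouring pairs overlapped and neither passed the threshold. In bulk tissue, fewer cells of a type and less RNA per cell cannot be told apart, for this gene and for those below.

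Folr1, the receptor that takes folate across the epithelium into cerebrospinal fluid, was highest in stressed saline. It was at 2.17, 3.57 and 4.73 CPM in non-stressed saline, 6.20, 7.11 and 6.05 CPM in stressed saline, and 5.47, 2.88 and 3.96 CPM in SHNK. The 3 stressed libraries were above all 6 others, and the ranges of the other groups overlapped. The log2 fold change was 0.89 ± 0.27 (adjusted p = 0.175) for stressed against non-stressed saline and -0.65 ± 0.27 (adjusted p = 0.157) for SHNK against stressed saline, and neither passed in edgeR. DESeq2 called the first (adjusted p = 0.0300) and limma voom the second (adjusted p = 0.0258).

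Lbp, which binds bacterial lipopolysaccharide and hands it to CD14, rose under stress. Its level was 8.57, 5.98 and 8.27 CPM in non-stressed saline, 17.4, 26.3 and 18.4 CPM in stressed saline, and 16.9, 6.68 and 8.42 CPM in SHNK. The stressed libraries were the 3 highest, and SHNK 1 stood just under them while the other SHNK libraries lay within the non-stressed range. Lbp was 2.71-fold higher in stressed than in non-stressed saline, a log2 fold change of 1.44 ± 0.28 (95% interval 0.83 to 2.04; adjusted p = 0.0222 in edgeR). The call was lost without non-stressed 1, 2 or 3 or stressed 2 (adjusted p = 0.0702, 0.114, 0.0510 and 0.131) and in limma voom (0.0635). SHNK against stressed saline gave -0.95 ± 0.28 and just missed the threshold (adjusted p = 0.0555), and without SHNK 1 it gave -1.46 (adjusted p = 0.00277). Limma voom also called this fall.

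Sostdc1, a secreted antagonist of BMP signalling that also acts on the Wnt pathway, rose under stress as well. It was at 1.91, 1.72 and 2.55 CPM in non-stressed saline, 3.25, 9.34 and 4.90 CPM in stressed saline, and 3.07, 2.51 and 3.48 CPM in SHNK. Stressed saline replicate 2 was far above the other 8 libraries. The stressed and non-stressed ranges did not overlap, and the stressed and SHNK ranges did. The rise was 2.82-fold, a log2 fold change of 1.50 ± 0.32 (95% interval 0.80 to 2.19; adjusted p = 0.0386 in edgeR). Without stressed 2 it was 0.97 (adjusted p = 0.210), and it also missed the threshold without non-stressed 1, 2 or 3 (0.153, 0.148 and 0.0534), stressed 3 (0.0583) or SHNK 3 (0.0637). It missed it too with no filter on low counts (0.0531), in a fit of those groups alone (0.0671) and in limma voom (0.168). SHNK against stressed saline gave -0.96 ± 0.31 (adjusted p = 0.0851), which passed without stressed 1 (adjusted p = 0.0244), in DESeq2 (0.0224) and in limma voom (0.0494).

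Calml4, a calmodulin-like protein of the complex that links microvilli in brush borders, had the smallest adjusted p of the 8 genes in each of the first 2 comparisons. Its level was 5.33, 4.48 and 5.50 CPM in non-stressed saline, 10.2, 13.1 and 11.7 CPM in stressed saline, and 8.20, 5.25 and 6.33 CPM in SHNK. All stressed libraries were above all others, and SHNK overlapped non-stressed saline. Calml4 was 2.28-fold higher in stressed than in non-stressed saline, a log2 fold change of 1.19 ± 0.18 (95% interval 0.81 to 1.57; adjusted p = 0.00788 in edgeR). This call held in all 18 alternatives run, with adjusted p between 0.00230 and 0.0491 over the 9 that left out 1 library. Calml4 fell by 0.82 ± 0.17 on the log2 scale from stressed saline to SHNK (adjusted p = 0.0153). That call was lost without stressed 2 or SHNK 2 or 3 (adjusted p = 0.0696, 0.0840 and 0.0871).

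Clic6, of the chloride intracellular channel family, was lower in SHNK than in stressed saline. It was at 9.23, 7.36 and 9.27 CPM in non-stressed saline, 14.1, 10.2 and 10.5 CPM in stressed saline, and 7.53, 5.85 and 8.09 CPM in SHNK. The stressed libraries were the 3 highest, with replicate 1 standing out, and the other groups overlapped. Clic6 fell by 0.70 ± 0.17 on the log2 scale from stressed saline to SHNK (95% interval -1.06 to -0.34; adjusted p = 0.0276 in edgeR). The call was lost without stressed 1 or SHNK 2 or 3 (adjusted p = 0.113, 0.132 and 0.0742). Stressed against non-stressed saline gave 0.43 ± 0.17 (adjusted p = 0.388).

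Otx2, a homeobox transcription factor needed to form the choroid plexus, followed the same order of groups as Clic6. It was at 9.27, 10.5 and 8.19 CPM in non-stressed saline, 10.04, 16.96 and 12.4 CPM in stressed saline, and 8.73, 7.82 and 8.66 CPM in SHNK. Stressed saline replicate 1 lay inside the non-stressed range, and all SHNK libraries were below all stressed ones. Otx2 fell by 0.65 ± 0.17 on the log2 scale from stressed saline to SHNK (95% interval -1.02 to -0.28; adjusted p = 0.0417 in edgeR). The call was lost in 6 of the 9 fits that left out 1 library. These were the fits without non-stressed 1 (adjusted p = 0.0515), stressed 2 or 3 (0.173 and 0.0685) and SHNK 1, 2 or 3 (0.0606, 0.153 and 0.139). Stressed against non-stressed saline gave 0.50 ± 0.17 (adjusted p = 0.268).

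Kl, which encodes klotho, the co-receptor through which FGF23 acts on FGF receptors, was the least abundant of the 8 genes, with 12 to 70 reads per library. It was at 0.636, 0.376 and 0.442 CPM in non-stressed saline, 0.701, 1.50 and 0.648 CPM in stressed saline, and 1.11, 0.656 and 0.679 CPM in SHNK. The non-stressed libraries were the 3 lowest, by a margin of only 0.636 against 0.648 CPM, and the other groups overlapped. Against non-stressed saline the log2 fold change was 0.96 ± 0.40 in stressed saline (adjusted p = 0.430) and 0.74 ± 0.40 in SHNK (adjusted p = 0.349). Between SHNK and stressed saline it was -0.22 ± 0.37 (adjusted p = 0.773), and 0.28 without stressed 2. No difference between groups passed for Kl at this depth.

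**Figure D2:**
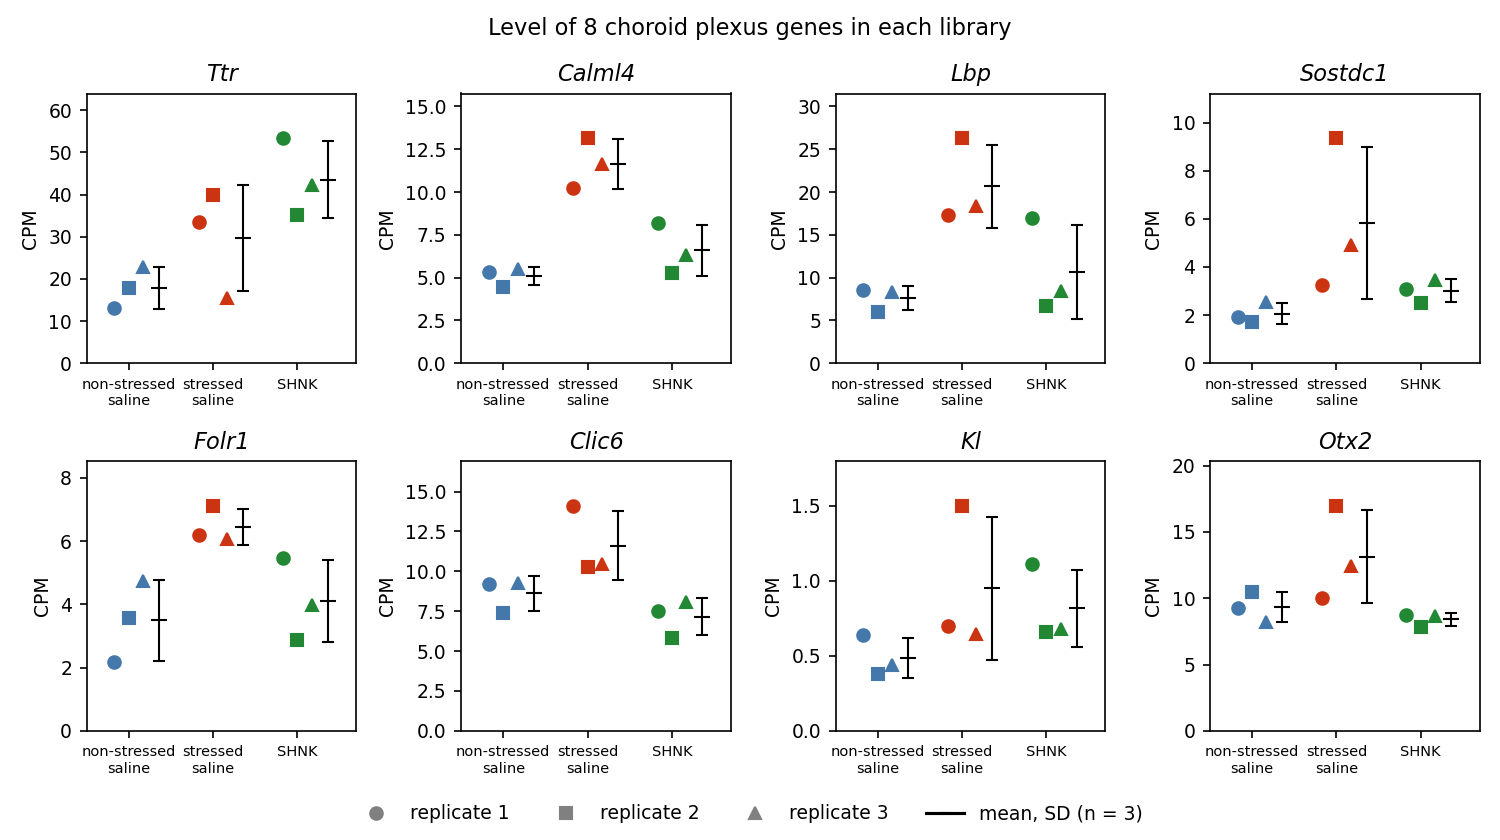
Level of each of the 8 genes in CPM, by group, with 1 point per library, marker shape for replicate, and the mean with SD (n = 3) beside the points. The stressed libraries lie highest for Calml4 (10.2 to 13.1 CPM) and Lbp (17.4 to 26.3 CPM), while Ttr is highest in SHNK (35.2 to 53.3 CPM).

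The effect of social defeat was read from stressed against non-stressed saline. Of the 8, 3 rose (Calml4, Lbp and Sostdc1) and 0 fell, where 1.17% of all tested genes were called, 1.15% as higher and 0.0165% as lower. All 8 had a log2 fold change above 0, from 0.43 (Clic6) to 1.50 (Sostdc1). Their median was 0.92, against -0.017 over all genes tested. All 8 had an unadjusted p under 0.05, as did 9.45% of all genes. In 6 of the 8 the stressed libraries lay above all non-stressed ones (all but Ttr and Otx2), as in 7.36% of all genes, and in 0 they lay below, as in 5.53%. DESeq2 called 4 of the 8 and limma voom 1. Without non-stressed 1, 2 or 3 or stressed 2, the count of calls was 1.

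The effect of the metabolite in defeated mice was read from SHNK against stressed saline. Of the 8, 3 fell (Calml4, Clic6 and Otx2) and 0 rose, where 6.41% of all tested genes were called, 3.96% as lower and 2.45% as higher. In this comparison 7 of the 8 had a log2 fold change below 0 and Ttr one above 0, with a median of -0.68 against -0.0091 over all genes. An unadjusted p under 0.05 was found for 6 of the 8 and for 23.3% of all genes. The SHNK libraries lay below all stressed ones in 5 of the 8 (Calml4, Lbp, Folr1, Clic6 and Otx2), as in 15.9% of all genes, and above them in 0, as in 14.4%. Limma voom called 6 and DESeq2 4. The count of calls was 1 without stressed 2, and 0 without SHNK 2 or without SHNK 3. Both comparisons share the stressed saline libraries, so a high stressed library moves a gene up in the first and down in the second.

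SHNK against non-stressed saline asked where treated defeated mice stood relative to never stressed ones. None of the 8 passed in edgeR, where 0.00550% of all tested genes did (0% as higher), and 1 of the 8 (Ttr) had an unadjusted p under 0.05, against 18.3% of all genes. DESeq2 called 1 (Ttr) and limma voom 0, and edgeR called 1 without non-stressed 2. The log2 fold changes of the genes other than Ttr ran from -0.27 (Clic6) to 0.74 (Kl), and the SHNK libraries lay above all non-stressed ones only for Ttr and Kl, as in 9.83% of all genes, and below them for none, as in 11.5%. The test over all 3 groups at once passed for 4 of the 8, Calml4 (adjusted p = 0.00500), Lbp (0.0205), Sostdc1 (0.0323) and Ttr (0.0395), where 4.88% of all genes passed. That count was 1 without stressed 2 or SHNK 3 and 2 without non-stressed 1 or SHNK 2. DESeq2 gave 7.

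**Figure D3:**
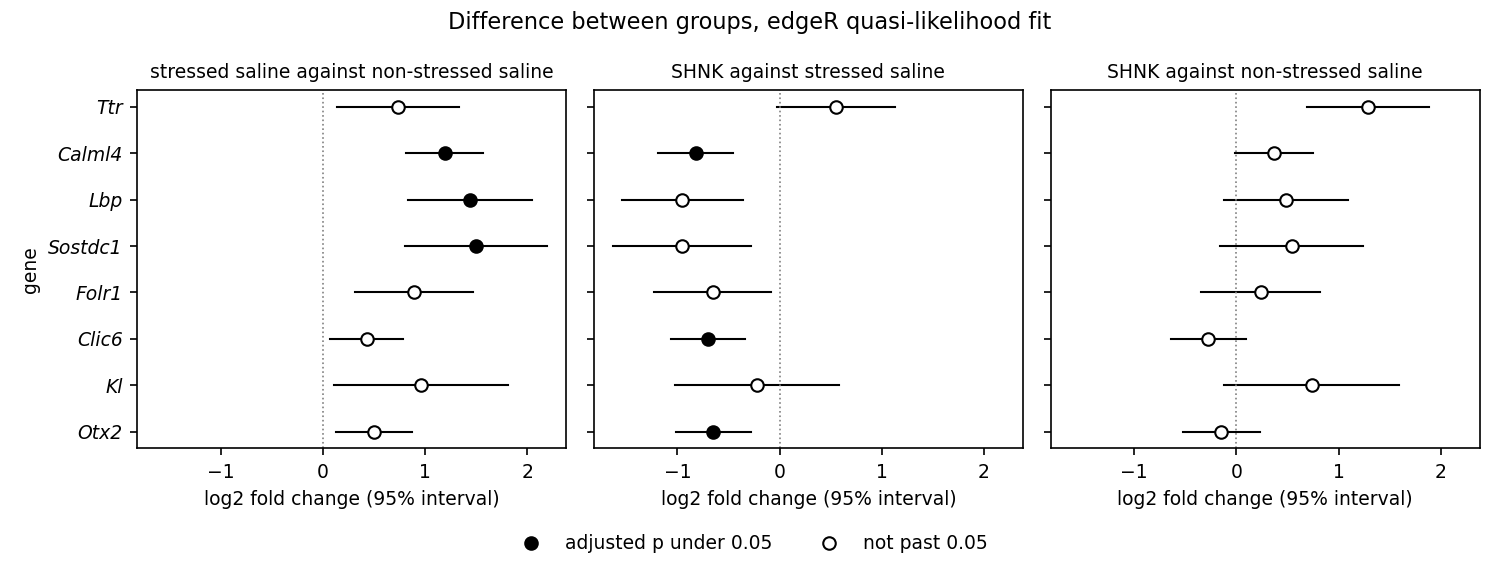
Log2 fold change of each gene in the 3 comparisons from the edgeR fit over 9 libraries, with 95% intervals as bars and filled points for an adjusted p under 0.05. Filled points are Calml4, Lbp and Sostdc1 (1.19 to 1.50) in the first panel and Calml4, Clic6 and Otx2 (-0.82 to -0.65) in the second, and Ttr is the only gene above 0 in the second.

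Within a group the genes tended to be high in the same library. Stressed saline replicate 2 was the highest of its group for 7 of the 8 genes (all but Clic6), and SHNK 1 for 6 of the 8. In non-stressed saline, replicate 3 was the highest for 5. How often all tested genes were highest in these libraries was not counted. Among stressed libraries, the summed ependyma list (521 CPM) and habenula list (770 CPM) described below were also highest in replicate 2. The summed level of the 8 genes was 50.2, 51.7 and 61.8 CPM in non-stressed saline, 95.4, 124 and 80.2 CPM in stressed saline and 104, 66.8 and 81.8 CPM in SHNK. By this sum the stressed and SHNK groups overlapped, and both lay above non-stressed saline.

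Ttr made up a larger part of that sum in SHNK. As a share of reads, with no correction for gene length, it was 26.0%, 34.3% and 37.0% of the sum in non-stressed saline, 35.1%, 32.02% and 19.4% in stressed saline, and 51.1%, 52.7% and 51.6% in SHNK. The SHNK shares were nearly equal to each other and above all 6 others. On the log2 scale Ttr exceeded the mean of the other 7 genes by 3.22 to 3.27 in SHNK, by 1.78 to 2.46 in non-stressed saline and by 1.22 to 2.41 in stressed saline. Without Ttr, the sum of the other 7 genes was 34.0 to 39.0 CPM in non-stressed saline, 61.9 to 84.5 CPM in stressed saline and 31.6 to 51.1 CPM in SHNK. The split of Ttr from the others was noticed in these values and is a description with no test.

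**Figure D4:**
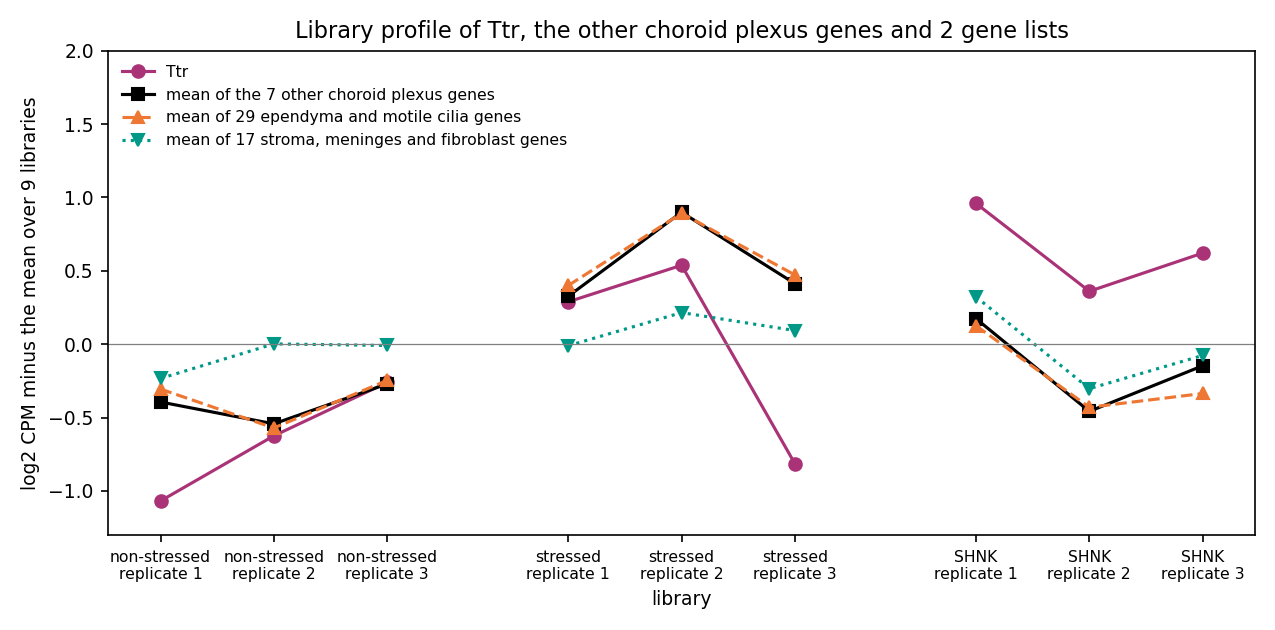
Log2 CPM minus its mean over the 9 libraries for Ttr, for the mean of the other 7 genes, for the mean of 29 ependyma and motile cilia genes and for the mean of 17 genes of stroma, meninges and fibroblasts, library by library. The curves of the 7 genes and of the cilia list run close together with a peak in stressed 2, whereas Ttr is low in stressed 3 and high in all SHNK libraries.

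The likeness of any 2 genes was measured as the root mean square difference of log2 CPM over the 9 libraries, after each gene was centred on its mean, so that a smaller value means a closer profile. Calml4 and Lbp were the closest pair of the 8, at 0.24, and Clic6 was closest to Otx2, at 0.35. Pairs that leave out Ttr ran from 0.24 to 0.63. Ttr was 0.54 from Kl, its nearest, and 0.81 from Lbp, its farthest. These values describe 9 shared libraries in 3 groups and carry no test.

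**Figure D5:**
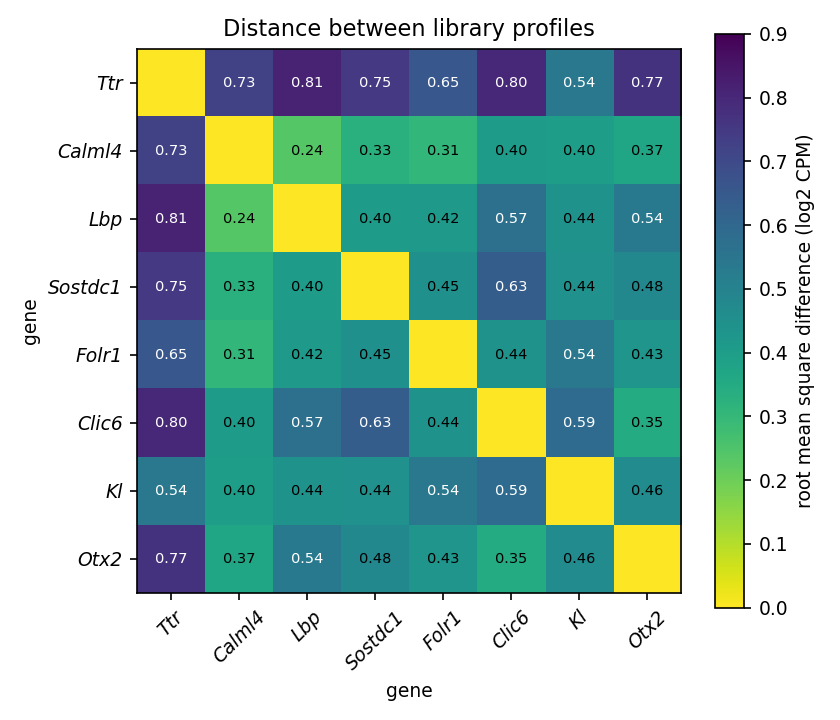
Root mean square difference between the library profiles of each pair of the 8 genes, in log2 CPM over 9 libraries, from 0 (yellow) to 0.9 (dark). The Ttr row is the darkest, at 0.54 to 0.81, and Calml4 with Lbp is the closest pair at 0.24.

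Among 12445 other named genes of sufficient level, the genes nearest to Calml4 were Ccdc33 (0.087), Ccdc153 (0.090) and Rsph1 (0.10), closer than any of the other 7 choroid plexus genes. Rsph1 encodes a protein of the radial spoke head of motile cilia, and Ccdc153 is a marker of ependyma. Nearest to Lbp were Fam216b (0.17), Dnali1 (0.18), an axonemal dynein chain, and the adenylate kinase Ak7 (0.18). Nearest to Sostdc1 was Tmem212 (0.23), an ependymal marker, and nearest to Folr1 were Ankrd66 (0.18) and Ppp1r36 (0.19). Otx2 was nearest to Cacna1e (0.070), a voltage-gated calcium channel subunit of neurons, followed by Dnah1 (0.12), an axonemal dynein, and Cbln2 (0.13), a secreted synaptic organiser. Clic6 was nearest to Gask1a (0.12), and Ttr to Pmch (0.37), the precursor of melanin-concentrating hormone, at a greater distance than the others. For the mean of the 8 genes the nearest were Cfap299 (0.087), Enkur (0.12) and Rsph1 (0.13). For the mean of the 7 without Ttr, a profile added after the values were seen, they were Rsph1 (0.083), Tekt1 (0.091), a tektin of the axoneme, and Ccdc153 (0.10). No gene of the wider choroid plexus epithelium list was among the 5 nearest to any of the 7 genes compared this way, or among the 10 nearest to either mean. The search required a mean log2 CPM of at least 1. The 12 genes of that list that stayed under 2 CPM in every library could therefore not appear.

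The list of ependyma and motile cilia genes had medians of the same sign as the 7 genes other than Ttr under stress and from stressed saline to SHNK. Of its 29 tested members, 14 rose and 0 fell under stress, against 1.15% and 0.0165% of all tested genes. The median log2 fold change of the list was 0.99. From stressed saline to SHNK 0 rose and 15 fell, against 2.45% and 3.96% of all tested genes, and the list median was -0.81. Its summed level was 208 to 247 CPM in non-stressed saline, 367 to 521 CPM in stressed saline and 214 to 315 CPM in SHNK. The number that rose was 4, 7 and 3 without non-stressed 1 or 2 or stressed 2. The number that fell was 3, 1 and 1 without stressed 2 or SHNK 2 or 3. Rsph1 rose by 1.12 ± 0.15 (adjusted p = 0.00532) and then fell by 0.78 ± 0.15 (adjusted p = 0.00996), and Ccdc153 rose by 1.17 ± 0.16 (0.00568) and fell by 0.89 ± 0.16 (0.00807). The part of ependyma in the differences of the 8 genes was not tested.

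The 46 tested genes of the wider choroid plexus list had medians nearer to 0 than the 8 genes. Neurons or glia also express some of them, such as Atp1b1, so these medians are not those of the epithelium alone. Of all tested genes 1.15% rose and 0.0165% fell under stress. Of the 46, 4 rose and 0 fell, with a median log2 fold change of 0.22. These were Slc39a4, a zinc transporter (1.48 ± 0.23; adjusted p = 0.00970), the homeobox gene Msx1 (1.15 ± 0.21; 0.0139), the sulfate transporter Slc13a4 (1.52 ± 0.27; 0.0140) and the keratin Krt8 (1.40 ± 0.27; 0.0182). Slc13a4 was at 1.71, 1.69 and 1.57 CPM in non-stressed saline, 3.71, 6.06 and 4.45 CPM in stressed saline and 3.41, 1.61 and 2.34 CPM in SHNK. It was thus highest in the stressed libraries, and among SHNK libraries in replicate 1, as were Calml4 and Lbp. Msx1 and Krt8 showed this too, with SHNK levels of 9.36, 5.57 and 5.02 CPM and of 2.63, 1.85 and 1.38 CPM. Slc39a4 was highest in the stressed libraries but not raised in SHNK 1, at 1.77, 1.79 and 1.93 CPM in SHNK. From stressed saline to SHNK, 3.96% of all tested genes fell and 2.45% rose. Of the 46, 9 fell and 3 rose, with a median of -0.28. Those that fell include Slc39a4 (-1.53 ± 0.23; 0.00366), the retinol dehydrogenase Rdh5 (-0.74 ± 0.12; 0.00520) and Msx1 (-1.03 ± 0.20; 0.0118). Those that rose were Htr2c, a serotonin receptor (0.57 ± 0.10; 0.00743), Atp1b1 (0.38 ± 0.082; 0.0171) and Slc4a10, a bicarbonate transporter (0.43 ± 0.11; 0.0301), all of which neurons also express. The number that rose under stress was 1 without non-stressed 1 or 2 and 0 without stressed 2. The number that fell under SHNK was 6 and 5 without stressed 1 or 3, and 2 without stressed 2, SHNK 2 or SHNK 3. The number that rose in SHNK was 1 without stressed 1, stressed 3, SHNK 2 or SHNK 3. Of the 12 low genes 11 were tested and 0 passed in either comparison. The 95% interval left out 0 for 4 and 3 of them, while 9.45% and 23.3% of all genes had an unadjusted p under 0.05. Under stress 10 of the 11 had a log2 fold change above 0, from 0.068 ± 0.44 for Slc4a5 to 1.44 ± 0.63 for Cldn1, a claudin, and Trpv4, a cation channel, had -0.26 ± 0.39. Steap1 had 1.35 ± 0.33 (adjusted p = 0.0689), with 0.965, 0.470 and 0.417 CPM in non-stressed saline and 1.44, 1.69 and 1.66 CPM in stressed saline. From stressed saline to SHNK 8 of the 11 were below 0, and the lowest was Trpv4 with -0.93 ± 0.41. Kcnj13 had 0.28 ± 0.46 and 0.25 ± 0.44 in these comparisons. The mean log2 CPM of the 11 was taken less its mean over the 9 libraries. It was -0.44 to -0.12 in non-stressed saline, 0.18 to 0.40 in stressed saline and -0.22 to 0.25 in SHNK. The stressed and non-stressed ranges did not overlap, and stressed libraries lay above all non-stressed ones in 7.36% of single genes.

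Markers of other midline tissue also differed between the groups. Of all tested genes, 1.15% rose and 0.0165% fell under stress, and 3.96% fell and 2.45% rose from stressed saline to SHNK. Of 12 tested habenula genes, 10 rose under stress and 11 fell in SHNK, and their summed level was 82.4 to 143 CPM in non-stressed saline, 253 to 770 CPM in stressed saline and 48.6 to 57.2 CPM in SHNK. The number that rose was 3 and 4 without non-stressed 1 or 2 and 4 without stressed 2. The habenula sum was also lower in SHNK than in non-stressed saline, with no overlap, although 0 of the 12 genes passed between them in edgeR (6 at an unadjusted p under 0.05; 6 in DESeq2 and 0 in limma voom). Without non-stressed 1 or 2 or stressed 1 or 2, 1, 5, 2 and 3 of them were called lower there. Of the 8 genes, Ttr and Kl were higher in SHNK than in non-stressed saline with no overlap. The ranges of Calml4, Lbp, Sostdc1, Folr1, Clic6 and Otx2 overlapped between those groups. Of 12 astrocyte genes, 2 rose and then 7 fell, with sums of 5067 to 5239, 4398 to 5723 and 3925 to 4250 CPM in the order above. The number that rose was 1 without non-stressed 1 and 0 without non-stressed 2 or stressed 2, and the number that fell was 4 without stressed 1 and 3 without SHNK 2 or 3. Of 21 genes of the paraventricular and other thalamus, 0 passed under stress (7 at an unadjusted p under 0.05; 2 in DESeq2 and 0 in limma voom) and 8 rose in SHNK against stressed saline, or 3 without stressed 2, SHNK 2 or SHNK 3. The part of these tissues in the differences of the 8 genes was not tested.

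Markers of the stroma and vessels under the choroid epithelium were set beside the share of all tested genes called. That share was 1.17% under stress and 6.41% from stressed saline to SHNK, so 0 calls in so short a list says little. Of 17 genes of choroid stroma, meninges and fibroblasts, 0 were called in edgeR in either of the first 2 comparisons, with 2 and 0 at an unadjusted p under 0.05, 0 and 0 in DESeq2 and 0 and 1 in limma voom. Their summed level was 283 to 417 CPM in non-stressed saline, 331 to 422 CPM in stressed saline and 379 to 482 CPM in SHNK. Of 12 endothelial genes, which include Plvap of fenestrated vessels, 0 passed under stress in edgeR, DESeq2 or limma voom (1 at an unadjusted p under 0.05) and 1 fell in SHNK, a call lost without stressed 3 or SHNK 3. Of 5 tested blood genes 4, all globins, rose from stressed saline to SHNK, with sums of 372 to 516 CPM against 586 to 676 CPM. Ttr had its log2 fold change of 0.55 in the same direction and the other 7 genes in the opposite one. That count was 0 without stressed 1 or 2 or SHNK 2 or 3, and the part of blood in the Ttr values was not tested. Oligodendrocyte and microglia lists of 12 genes each had 0 calls in edgeR, DESeq2 and limma voom in these comparisons, with at most 4 members at an unadjusted p under 0.05. Without stressed 2, 2 oligodendrocyte genes were called lower in SHNK than in stressed saline.

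Partners of the 8 genes in their pathways were tested next. Over all tested genes, 1.17% were called under stress and 6.41% from stressed saline to SHNK. Few calls are thus usual for a list this short. Of 13 genes of thyroid hormone and retinol handling, on which Ttr acts, 0 passed in edgeR in either of the first 2 comparisons (1 in each at an unadjusted p under 0.05; 1 and 0 in DESeq2; 0 in limma voom). Of 9 folate genes beside Folr1, 0 passed under stress by any of the 3 tools (0 at an unadjusted p under 0.05), and 1 fell in SHNK, the mitochondrial serine hydroxymethyltransferase Shmt2 (-0.35 ± 0.093; adjusted p = 0.0430), with 4 at an unadjusted p under 0.05, 2 called in DESeq2 and 3 in limma voom. Of 7 partners of klotho, 0 passed in edgeR (0 and 4 at an unadjusted p under 0.05; 0 and 2 in both DESeq2 and limma voom), and in SHNK 2 were called without non-stressed 2 or 3 and 1 without SHNK 1. Of 7 genes of lipopolysaccharide recognition, to which Lbp belongs, 0 passed by any of the 3 tools and 0 had an unadjusted p under 0.05. Of 14 BMP and Wnt genes around Sostdc1, 0 passed under stress (3 at an unadjusted p under 0.05; 0 in DESeq2 and limma voom) and 2 fell in SHNK, Bmp7 (-0.97 ± 0.16; adjusted p = 0.00503) and Dkk3 (-0.50 ± 0.13; 0.0346). Of 11 water and ion transport genes, 1 rose under stress, the astrocyte water channel Aqp4, and in SHNK 1 rose (Atp1b1) and 2 fell (Aqp4 and Clic4). Without SHNK 2 or SHNK 3, the folate list had 0 calls in SHNK, the BMP and Wnt list 1, and the water and ion list 1 lower and 0 higher. The folate list also had 0 calls without non-stressed 1 or any 1 of the stressed saline libraries, and 2 without non-stressed 2. The BMP and Wnt list had 1 without any 1 of the stressed saline libraries. The water and ion list had 1 lower without stressed 1, stressed 2 or SHNK 1, and 0 higher without stressed 1 or stressed 3. Under stress it had 0 calls without non-stressed 2 or stressed 2.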

How the data were processed

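Bulk RNA was measured in 9 mouse libraries in 3 groups of 3, assigned from the labels. The authors deposited 1 table of whole-number read counts by gene symbol, with no normalization found in its values. StringTie, HISAT2 and Trimmomatic 0.38, and the builds GRCm38 and mm10, are named per the submitters' processing notes. What each tool did, and whether counting used strand, is not given in the sources used here. Per the labels' protocols, 100 ng of total RNA entered SMARTer Ultra low and TruSeq library construction, so reads are not counted as molecules.

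Genes were filtered with filterByExpr on the groups (minimum count 10, minimum total 15; 18194 of 18956 kept), scaled by TMM and tested in a single quasi-likelihood fit of all 9 libraries (glmQLFit and glmQLFTest, edgeR 4.0.16, R 4.3.3; common biological coefficient of variation 0.132). P-values were adjusted over all 18194 genes by the Benjamini-Hochberg method and called under 0.05. A prior count of 2 entered log2 CPM. RPKM used the exonic length of GENCODE M21, which matched 17243 symbols (91%), and coordinates came from RefSeq, which matched 18333 (96.7%). Totals were at least 32307869 counts per library, but Kl had only 12 to 70 reads in each. How far read number or the spread between libraries limits the precision for each gene was not measured.

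The 9 names, the gene lists and the tests were chosen with earlier results of these data known. The genes named are the 8 in every comparison, up to 4 members per list with the smallest p past the threshold, and the 5 nearest profiles among genes whose mean log2 CPM reached 1 (10 for the means), of which the first few are printed. Low genes of the wider list were named after their values were seen. Alternatives were DESeq2 1.42.0, limma 3.58.1 voom with sample quality weights, other scalings and filters, the compared groups only, a replicate block, an adjusted p of 0.1 and leaving out each library. The procedure was tested on simulated data.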

Additional observations from a re-analysis of the deposited data

How the results depend on the processing

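With 3 libraries a group the number of calls among the 8 genes depended on single libraries. Leaving out each library gave 1 to 3 calls under stress, 0 to 3 for SHNK against stressed saline, 0 to 1 for SHNK against non-stressed saline and 1 to 4 for any difference. Limma voom gave 1 call under stress and 6 for SHNK against stressed saline. An adjusted p of 0.1 gave 5 for SHNK against stressed saline and 1 for SHNK against non-stressed saline, where DESeq2 and the fit of those groups alone also gave 1. DESeq2 gave 7 for any difference. Of 428 log2 fold changes of the 8 genes under alternatives, 381 kept their sign and side of the threshold, 28 fell short of it, 15 came to pass it and 4 changed sign. Those 4 were Folr1 in SHNK against non-stressed saline without non-stressed 1 (-0.021) or SHNK 1 (-0.016), Lbp there without SHNK 1 (-0.0071), and Kl in SHNK against stressed saline without stressed 2 (0.28). Over the fits that left out a library, these log2 fold changes reached 0.53 for Folr1, 0.74 for Lbp and -0.51 for Kl at the other end. The cause was not tested. Kl has no value under the filter of 1 CPM in at least 3 libraries or where DESeq2 gave no adjusted p.

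The replicate numbers did not pair the libraries. Deviations from the group means correlated from -0.10 to 0.11 between libraries of the same number and from -0.19 to 0.11 between others. With the replicate number as a block, 2, 3 and 0 of the 8 genes were called in the 3 comparisons in order and 3 for any difference, with 177, 878 and 6 calls over all genes. Sostdc1 under stress (adjusted p = 0.0633) and Otx2 for SHNK against stressed saline (0.0534) then missed the threshold, and Lbp for SHNK against stressed saline (0.0475) passed it.

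Over all genes, 213 were called under stress, with 473 in DESeq2, 102 in limma voom, 370 at an adjusted p of 0.1, and 50, 71 and 40 without non-stressed 1 or 2 or stressed 2. For SHNK against stressed saline 1167 were called, with 1990, 2377 and 2182 in the same alternatives, 653, 367 and 718 without stressed 1 to 3, and 238 and 176 without SHNK 2 or 3. For SHNK against non-stressed saline 1 was called, with 989 in DESeq2, 9 in the fit of those groups alone, 520 at an adjusted p of 0.1, 0 under upper-quartile scaling, no filter or the 1 CPM filter, and 0 to 749 when leaving out each library, the most without non-stressed 2.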
